A study of Mus musculus with 38 samples.

Results

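Cck, the gene of the neuropeptide cholecystokinin, and its receptor genes Cckar and Cckbr were followed in dissected adBNST (the anterodorsal bed nucleus along the stria terminalis), which links the amygdala with hypothalamic stress and reward circuits. They are 3 of the 25230 genes in the count table, and all 3 were among the 16309 genes that passed the filter on low counts. The genes were chosen by name, as a ligand with its receptors, with their levels in the 4 groups of mice in view, so the differences between those groups are given as a description and carry no test. All mice were wild type. Female controls (10 libraries) and male controls (10 libraries) were compared with stressed females (9 libraries) and stressed males (9 libraries), which had gone through chronic variable mild stress for 6 weeks, a random series of stressors such as altered light, wet bedding, swimming and restraint. The labels give no strain or age and do not say that each library came from its own animal, so each p-value reflects how much libraries, which may share an animal, vary. In bulk tissue, fewer cells of a type and less RNA per cell cannot be told apart.

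Cholecystokinin is made as a long precursor that neurons cut by prohormone convertases, sulfate on a tyrosine and amidate at its end before release. The type A receptor, encoded by Cckar, prefers the sulfated peptide and is best known from the gut, the vagus nerve and satiety. The type B receptor, encoded by Cckbr, is the more widespread one in the brain, also binds gastrin, and has long been studied in anxiety. Both are coupled to Gq proteins, which act through phospholipase C, calcium release and protein kinase C and can close the potassium channels that carry the M-current.

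The coding bases around the active end of the precursor are shown first, because this is where the ligand resembles gastrin, which shares the type B receptor. Cck lies on chromosome 9 (GRCm38, chr9:121489824-121495694, minus strand, RefSeq coordinates) and the gastrin gene Gast on chromosome 11 (chr11:100334407-100336997, plus strand). In the GENCODE M21 transcripts Cck-201 and Gast-201, the longest run of residues common to both precursors covers 11 codons, all of them in the coding part of exon 3 of 3. The capitals mark these 33 bases, and the lower-case bases are the 3 codons before them, which differ between the genes. The Cck stretch is at chr9:121490089-121490130 and the Gast stretch at chr11:100336846-100336887.
Cck: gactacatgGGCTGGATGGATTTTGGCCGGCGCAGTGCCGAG
Gast: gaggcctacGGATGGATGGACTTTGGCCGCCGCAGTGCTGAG
Of the 33 bases in capitals, 29 were identical. Neither gene shared a 50-base word with the transcripts of genes outside these 4, and the same held for both receptor genes. Exons of Cck, Cckar and Cckbr overlapped no exon of another gene on either strand, so their counts do not depend on how the counting treated strand.

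The bases before the start of Cck are shown as a description of the ligand gene. RefSeq's promoter table for GRCm38.p6 matched 2 of the 3 genes, Cck and Cckbr. With no entry for Cckar, the Cck window could not be set beside one of Cckar. Capitals in the 250 bases upstream of Cck (chr9:121495695-121495944, minus strand) mark an E-box, CACGTG, that begins 66 bases before the start, and TGCGTCA, a variant of the cyclic AMP response element, that begins 49 bases before it.
Cck: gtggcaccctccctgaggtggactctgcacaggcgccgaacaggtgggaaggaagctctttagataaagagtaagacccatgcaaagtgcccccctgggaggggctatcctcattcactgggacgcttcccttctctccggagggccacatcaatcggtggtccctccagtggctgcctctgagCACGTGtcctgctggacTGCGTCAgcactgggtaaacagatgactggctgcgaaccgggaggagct
Searched on both strands, CACGTG was in 6.02% and TGCGTCA in 1.75% of the 32851 upstream windows of the same length. The Cckbr window held CACGTG once, 106 bases before the start. The full cyclic AMP response element TGACGTCA (1.55% of windows), the oestrogen receptor palindrome GGTCANNNTGACC (0.0639%) and the glucocorticoid and androgen receptor palindrome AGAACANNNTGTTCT (0.00913%) had no match in either window, nor did its half-site AGAACA (16.1%). These motifs do not overlap one another in the Cck window.

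The shallowest library had 9.1 M counts, the deepest 84.8 M, and the median was 27.3 M. The dissections carried the RNA of GABA neurons: a list of 10 GABA and BNST markers summed to 1774.5 to 2850.9 CPM (counts scaled to the effective library size), and 7 markers of cortical excitatory neurons to 7.41 to 40.9 CPM, with Neurod6 and Emx1 at 0 in some libraries. In 5 libraries (female controls 1 and 6, male control 3 and stressed females 1 and 2) the myelin gene Mbp stood at 9034.5 to 13349 CPM, above the 1830.1 to 6428.9 CPM of the other 33. Cck was at 24.0 to 30.3 CPM in these 5 and Cckar at 1.19 to 6.07 CPM. In stressed male 5 the choroid plexus markers summed to 3206 CPM, and its Cck, Cckar and Cckbr levels of 15.9, 3.79 and 15.2 CPM lay inside the range of its group.

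Per kilobase of exon, Cck was the most abundant of the 3 transcripts, Cckbr came next and Cckar was the least abundant, in 38 of 38 libraries. Cck ranged from 5.82 to 48.7 CPM per kb with a median of 17.9, over 1305 exon bases. Cckbr ranged from 3.36 to 6.85 CPM per kb with a median of 5.45, over 2862 bases. Cckar ranged from 0.276 to 4.20 CPM per kb with a median of 0.914, over 3682 bases. The type B receptor was thus the steadier of the receptor transcripts: its highest library was 2.04-fold above its lowest, against 15.2-fold for Cckar and 8.37-fold for Cck.

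The ligand gene Cck was read 174 to 2448 times per library. Its level in female controls was 7.59 CPM in the lowest library, 19.9 at the median and 30.3 in the highest, with a mean of 19.0 ± 7.92 (SD, n = 10). Stressed females had 11.1, 15.2 and 28.6 CPM, with a mean of 17.9 ± 6.42 (SD, n = 9). Male controls had 15.7, 28.3 and 63.5 CPM, with a mean of 31.7 ± 13.8 (SD, n = 10). Stressed males had 12.3, 25.7 and 52.0 CPM, with a mean of 29.3 ± 13.4 (SD, n = 9). Males had the higher means in both conditions, yet the sexes overlapped widely: 4 of 10 male controls and 4 of 9 stressed males lay above every female of the same condition. In order of their means, male controls and stressed males lay within 1 SD of each other, as did female controls and stressed females. The step between stressed males and female controls was smaller than the SD of the stressed males but larger than that of the female controls.

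Cckar, the type A receptor gene (GRCm38, chr5:53698485-53707704, minus strand), had the largest contrast between the sexes of the 3 genes. It was read 18 to 715 times per library. Female controls had 1.16 CPM in the lowest library, 2.06 at the median and 3.53 in the highest, with a mean of 2.21 ± 0.912 (SD, n = 10). Stressed females had 1.02, 1.71 and 2.14 CPM, with a mean of 1.62 ± 0.384 (SD, n = 9). Male controls had 3.25, 6.41 and 15.5 CPM, with a mean of 7.14 ± 3.43 (SD, n = 10). Stressed males had 2.88, 4.51 and 12.4 CPM, with a mean of 6.26 ± 3.37 (SD, n = 9). The stressed groups did not overlap, all 9 males lying above all 9 females, and among controls 9 of 10 males lay above every female. The share of all tested genes that separate the sexes in this way was not counted. Male control 9 was the highest library in its group for all 3 genes and far above the rest of it for Cckar. The means of the male groups lay within 1 SD of each other. Those of the female groups lay within the SD of the controls, though not within that of the stressed females. The step between stressed males and female controls exceeded the SD of either.

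Cckbr, the type B receptor gene (chr7:105425676-105436339, plus strand), was nearly level across the groups. Its counts ran from 137 to 1019 per library. Female controls had 10.9, 15.9 and 19.4 CPM as lowest, median and highest, with a mean of 15.7 ± 2.84 (SD, n = 10), and stressed females 13.0, 15.7 and 19.4, with a mean of 16.1 ± 2.24 (SD, n = 9). Male controls had 9.63, 16.6 and 19.6 CPM, with a mean of 15.3 ± 4.02 (SD, n = 10), and stressed males 11.5, 15.2 and 19.5, with a mean of 14.9 ± 2.72 (SD, n = 9). The 4 ranges overlapped almost completely, and all 4 means lay within 1 SD of one another.

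**Figure D1:**
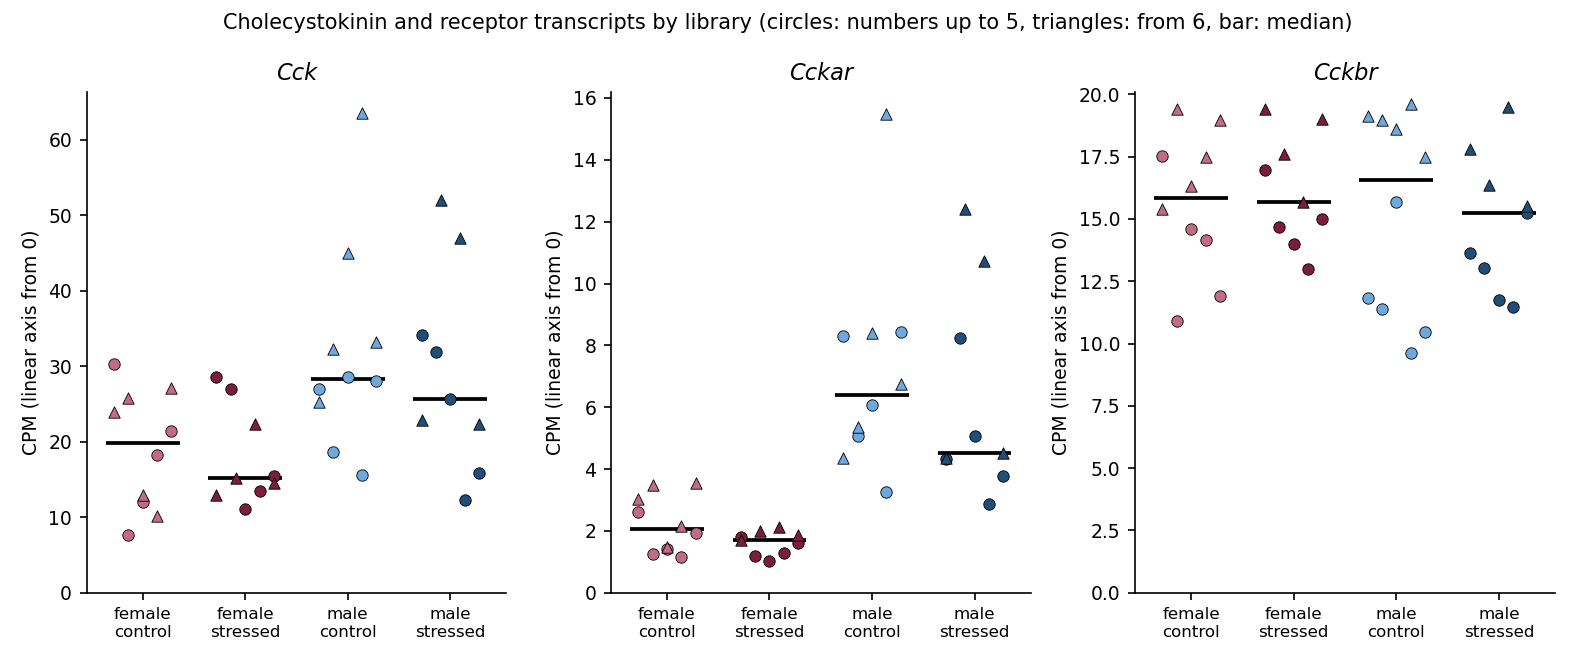
CPM of Cck, Cckar and Cckbr in each of the 38 libraries by group, on linear axes from 0; each point is a library, circles are libraries numbered up to 5, triangles those from 6, and bars are group medians. All 9 stressed males lie above all 9 stressed females for Cckar, while the groups overlap for Cck and Cckbr. The share of all tested genes that separate the sexes in this way was not counted.

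The first question of the design is what stress did within each sex. In females, stressed minus control was -0.44 ± 0.28 (log2 difference ± SE) for Cckar, -0.092 ± 0.265 for Cck and 0.044 ± 0.134 for Cckbr. In males it was -0.19 ± 0.26 for Cckar, -0.11 ± 0.26 for Cck and -0.033 ± 0.134 for Cckbr. The ranges of all 3 genes overlapped between stressed and control libraries in both sexes. Of the 16309 genes, edgeR's quasi-likelihood test called 0% in females and 0% in males at an adjusted p under 0.05, and 0 of the 3 genes were called; 308 and 655 genes had an unadjusted p under 0.05, and DESeq2 and limma voom with quality weights called 0 genes too. The male values rested on single libraries: without male control 9 the Cckar difference was 0.010 and the Cck difference 0.058, and without stressed male 7 they were -0.37 and -0.25. In females limma voom with quality weights gave -0.12 ± 0.33 for Cckar, and the Cck difference was 0.0049 without female control 1 and -0.20 without stressed female 1. In libraries numbered up to 5 alone, the Cck difference was 0.088 in females and 0.028 in males.

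The second question is whether stress acted differently in the sexes. The difference of the stress effects, males minus females, was 0.25 ± 0.38 for Cckar, -0.021 ± 0.372 for Cck and -0.077 ± 0.190 for Cckbr. The Cckar value was 0.060 without stressed male 7 and 0.45 without male control 9, and it turned to -0.16 ± 0.39 with limma voom with quality weights and to -0.090 ± 0.436 in libraries up to 5. The Cck value was -0.16 and 0.15 without the same libraries. Averaged over the sexes, stress differences were -0.31 ± 0.19 for Cckar, -0.10 ± 0.19 for Cck and 0.0052 ± 0.0950 for Cckbr. Here too 0% of genes and 0 of the 3 were called, with 736 and 239 genes at an unadjusted p under 0.05.

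Sex was the contrast in which the ligand and the type A receptor differed most. In controls, male minus female was 1.69 ± 0.26 for Cckar, a 3.23-fold difference, 0.75 ± 0.26 for Cck, a 1.68-fold difference, and -0.036 ± 0.131 for Cckbr. In stressed mice it was 1.94 ± 0.28 for Cckar, a 3.84-fold difference, 0.72 ± 0.27 for Cck and -0.11 ± 0.14 for Cckbr. The edgeR test called 11 genes in controls, 0.0674% of those tested, and 14 in stressed mice, 0.0858%, and Cckar was among them in both; since the groups were in view when the gene was chosen, nothing is read from that. The Cckar differences were of similar size within libraries numbered up to 5 (1.91 ± 0.31 in controls and 1.82 ± 0.31 in stressed mice) and from 6 (1.56 ± 0.35 and 2.06 ± 0.40). Those of Cck had larger estimates from 6: they were 0.41 ± 0.34 in controls and 0.35 ± 0.34 in stressed mice up to 5, and 0.99 ± 0.30 and 1.15 ± 0.34 from 6. Whether the sex differences themselves differed between the number sets was not tested. The small Cckbr difference in controls was -0.22 ± 0.14 up to 5 and 0.095 ± 0.102 from 6. Without male control 9 the Cckar difference in controls was 1.49, the lowest of any left-out library.

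Markers of steroid-hormone-sensitive cells, such as the oestrogen and androgen receptors, are given beside Cckar because 1 of them differed by sex. Their summed level ran from 69.5 to 263 CPM in female controls, 94.95 to 196 in stressed females, 122 to 283 in male controls and 157 to 337 in stressed males, and none of the 7 markers was at 0 in any library. Of the 7, 1 passed in stressed mice: Greb1, a hormone-regulated gene, was higher in males by 2.12 ± 0.42 (edgeR adjusted p = 0.0164). Its level was 1.39 to 11.02 CPM in stressed females and 13.4 to 69.4 in stressed males. The share of all tested genes that separate the sexes in this way was not counted. In controls 0 of the 7 passed, and the Greb1 ranges overlapped, at 1.40 to 19.55 CPM in females and 11.9 to 54.1 in males. By direction alone, 6 of the 7 were higher in males in each sex contrast, beside 50.5% of all tested genes in controls and 47.7% in stressed mice. Over the 7, the median log2 difference was 0.28 in controls and 0.39 in stressed mice. Over all tested genes it was 0.0016 and -0.013. The exception was the oestrogen receptor gene Esr1, which had its higher means in females and did not pass. Its means were 17.8 ± 10.2 CPM in control and 17.3 ± 5.61 in stressed females, against 13.3 ± 4.14 and 14.4 ± 4.06 in males (SD, n = 10 and 9). The part of these cells in the Cckar difference was not tested.

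**Figure D2:**
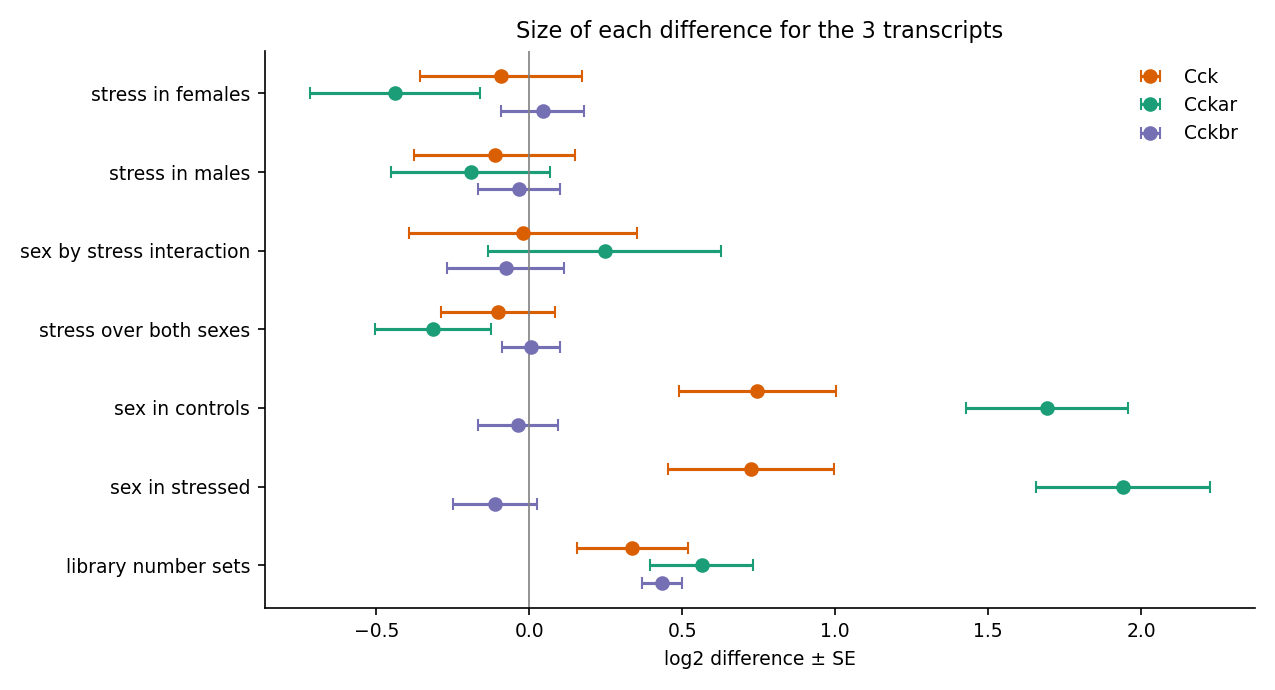
Log2 difference with its standard error for Cck, Cckar and Cckbr in each comparison; positive values mean higher in stressed, male or higher-numbered libraries, or a larger stress effect in males for the interaction. The 2 sex contrasts of Cckar, at 1.69 and 1.94, lie furthest from 0. The largest stress difference is that of Cckar in females, at -0.44 ± 0.28.

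The libraries of every group are numbered, and those numbered from 6 differed from those up to 5 across much of the transcriptome. The labels do not say what the numbers mark. Depth differed too: stressed males had 15.9 to 22.5 M counts up to 5 and 29 to 36.1 M from 6. Stressed females had 14.6 to 29.9 M and 28.4 to 35.3 M, and female controls 18.1 to 27.9 M and 22.6 to 33.8 M. Male controls had 9.1 to 84.8 M up to 5 and 26.8 to 40.6 M from 6. The part of depth in the differences below was not tested. The rule for the 3 genes did not use the number, but the genes and the split were both chosen with earlier results of these data known. With group as a covariate, libraries from 6 had more Cckbr, by 0.43 ± 0.065 (edgeR adjusted p = 1.37e-06), and more Cckar, by 0.56 ± 0.17 (adjusted p = 0.00637), while Cck, at 0.34 ± 0.18, did not pass (adjusted p = 0.128). Since 45.5% of tested genes passed here, 2 of 3 is close to the background. With limma voom and sample quality weights together Cckar did not pass (0.27, adjusted p = 0.170) and Cck did (0.40, adjusted p = 0.0214), and Cck also passed without the 5 myelin-rich libraries (0.52, adjusted p = 0.00859).

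Cckbr separated the number sets most cleanly in male controls, where it was 9.63 to 15.7 CPM in the 5 libraries up to 5 and 17.5 to 19.6 CPM in the 5 from 6, with no overlap. In stressed males the corresponding ranges were 11.5 to 15.2 and 15.5 to 19.5 CPM. In female controls they were 10.9 to 17.5 and 15.4 to 19.4 CPM, and in stressed females 13.0 to 17.0 and 15.7 to 19.4 CPM. Within each sex and condition the higher-numbered libraries thus had the higher range, and the ranges overlapped in females only. The share of all genes that separate the number sets in this way was not counted, and 45.5% of tested genes passed between them. Markers of the neighbouring tissue and of other cell types moved with the same split. In libraries from 6, 7 of 7 striatal markers (median -0.83) and 7 of 7 oligodendrocyte markers (median -0.90) passed as lower. There 5 of 5 ependymal markers (median 1.42) and 4 of 5 septal markers (median 0.62) passed as higher. The median over all genes was 0.011. Of the 10 GABA and BNST markers 3 were higher and 1 lower, and of the 7 hormone-sensitive ones 3 were higher and 0 lower. The higher ones were Prkcd (1.08 ± 0.17, edgeR adjusted p = 3.09e-06), a kinase gene of oval BNST neurons, the vesicular GABA transporter Slc32a1 (0.33 ± 0.073), Esr2 (0.84 ± 0.29), Greb1 (0.80 ± 0.25) and the aromatase Cyp19a1 (0.59 ± 0.23), which is on both lists. The lower one was Npy1r (-0.22 ± 0.088, edgeR adjusted p = 0.0418). For these 2 lists the share that passed was not above the 45.5% of all tested genes. The part of all these markers in the Cckbr and Cckar differences was not tested.

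Between libraries of the same group and number set, the ligand and the type A receptor rose and fell together. After subtracting the mean of each group within each number set from log2 CPM, Cck and Cckar had a Pearson r of 0.794 and a Spearman rho of 0.813 over 38 libraries (two-sided permutation test, p = 1e-05, the smallest that 100000 resamples can give; 3e-05 adjusted over 3 pairs). Without the 2 libraries farthest from the median of Cck, r was 0.822. It was 0.704 in libraries up to 5, 0.906 in those from 6, 0.727 in females and 0.900 in males. Before centring, both genes had their highest CPM in males in male control 9 and stressed male 7. Their lowest CPM in males was in male control 4 and stressed male 4. In females the extremes of CPM differed more. Cck was highest in female control 1 and stressed female 1, and Cckar in female control 10 and stressed female 8. The lowest controls in CPM were female 2 for Cck and female 4 for Cckar, and stressed female 3 was lowest for both. After centring, female control 1 (Cck 0.908, Cckar 0.682) and stressed female 1 (0.681, 0.397) were the highest of their groups for both genes.

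The type B receptor followed the ligand only loosely. Cck and Cckbr had a Pearson r of 0.392 (permutation p adjusted over the pairs 0.0471) and a Spearman rho of 0.336 (adjusted p 0.0937). The relation was 0.329 without the 2 libraries farthest from the median of Cck, 0.524 in libraries up to 5 and 0.126 in those from 6. It did not pass without the 5 myelin-rich libraries (r = 0.268, adjusted p = 0.210). For Cckar and Cckbr r was 0.298, with an adjusted permutation p of 0.0902; centred by group alone, without the number sets, r was 0.489 and passed (adjusted permutation p = 0.00391).

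**Figure D3:**
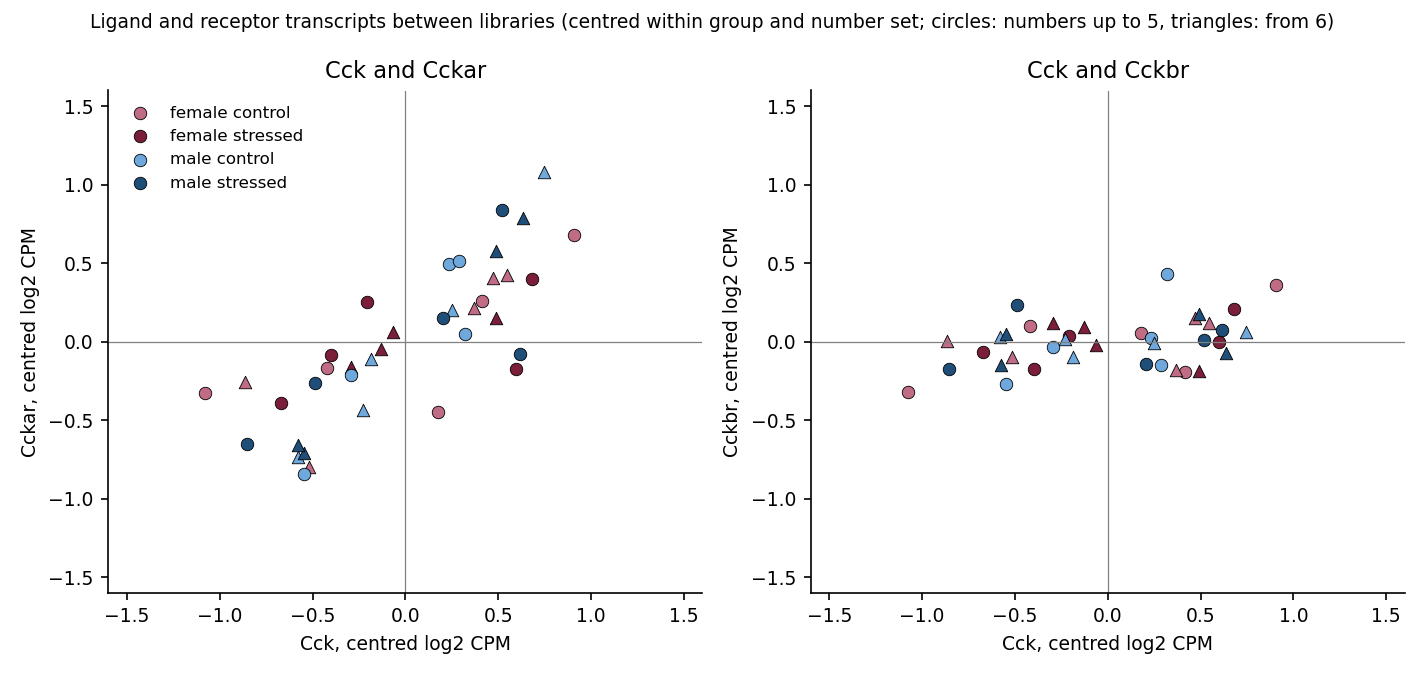
Centred log2 CPM of Cck against Cckar (left) and against Cckbr (right); each point is 1 of the 38 libraries, coloured by group, with circles for numbers up to 5 and triangles from 6. Cckar rises with Cck (r = 0.794), whereas Cckbr spans a narrow range (r = 0.392).

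Among 13726 genes ranked by their r with each member, Cckar stood at rank 6 for Cck and Cck at rank 4 for Cckar. Cckbr stood only at rank 2231 for Cck, and Cck at rank 2274 for Cckbr. These r values are descriptions over 38 libraries that share dissection, depth and normalisation, and over genes the median size of r was 0.302 for Cck, 0.154 for Cckar and 0.304 for Cckbr. Nearest to Cck were Rprm (reprimo, r = 0.851), the Wnt agonist Rspo1 (0.848), Aldh3b2 (0.844) and Lhx6 (0.832), a transcription factor of GABA interneurons. Nearest to Cckar were the complexin Cplx3 (0.809), Moxd1 (0.803), a monooxygenase-like gene known as a marker of sexually dimorphic cell clusters of the preoptic area and BNST, Lhx6 (0.799) and Cck itself. Lhx6 thus stood near both, and its level was alike in the sexes, from 43.8 to 95.9 CPM in male controls and 45.6 to 93.0 in female controls. None of the 3 other genes nearest to Cckar passed in a sex contrast, Cplx3 having the largest difference, 1.12 ± 0.32 in controls (edgeR adjusted p = 0.462).

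At the other end, Cck ran against Mbnl3 (-0.686), Ccsap (-0.682), Rnf169 (-0.661) and Nt5e (-0.659). Cckar ran against Fam184b (-0.654), Las1l (-0.604), the cold-inducible RNA-binding gene Rbm3 (-0.580) and Slc17a8 (-0.575), the vesicular glutamate transporter that marks part of the cholecystokinin interneurons of cortex. For Cckbr the nearest genes were Sumf2 (0.729), Polr1e (0.720), Dpysl5 (0.719) and Gorasp2 (0.714), and the most opposed Tbc1d12 (-0.710), Pms1 (-0.704), Slc22a15 (-0.700) and Mecom (-0.698). For each of these genes r with Cckbr was larger in size in libraries up to 5: that with Pms1 was -0.866 there and 0.110 in libraries from 6. The r values with Cckbr also leaned on male control 3 and female control 1, the 2 libraries farthest from its median. Without these 2 libraries r was 0.525 to 0.635 with its nearest genes and -0.582 to -0.518 with its most opposed genes.

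None of the 36 relations between the 3 genes and the summed level of 12 marker lists passed after adjustment. The highest were Cck with thalamic markers (r = 0.514, permutation p adjusted 0.159) and Cckar with the hormone-sensitive cells (r = 0.497, adjusted p 0.159). The latter was 0.778 in males and 0.117 in females; the difference between the sexes was not tested. Without the 5 myelin-rich libraries 3 relations passed, Cck with thalamic markers (0.630) and with hormone-sensitive cells (0.629) and Cckar with hormone-sensitive cells (0.729).

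**Figure D4:**
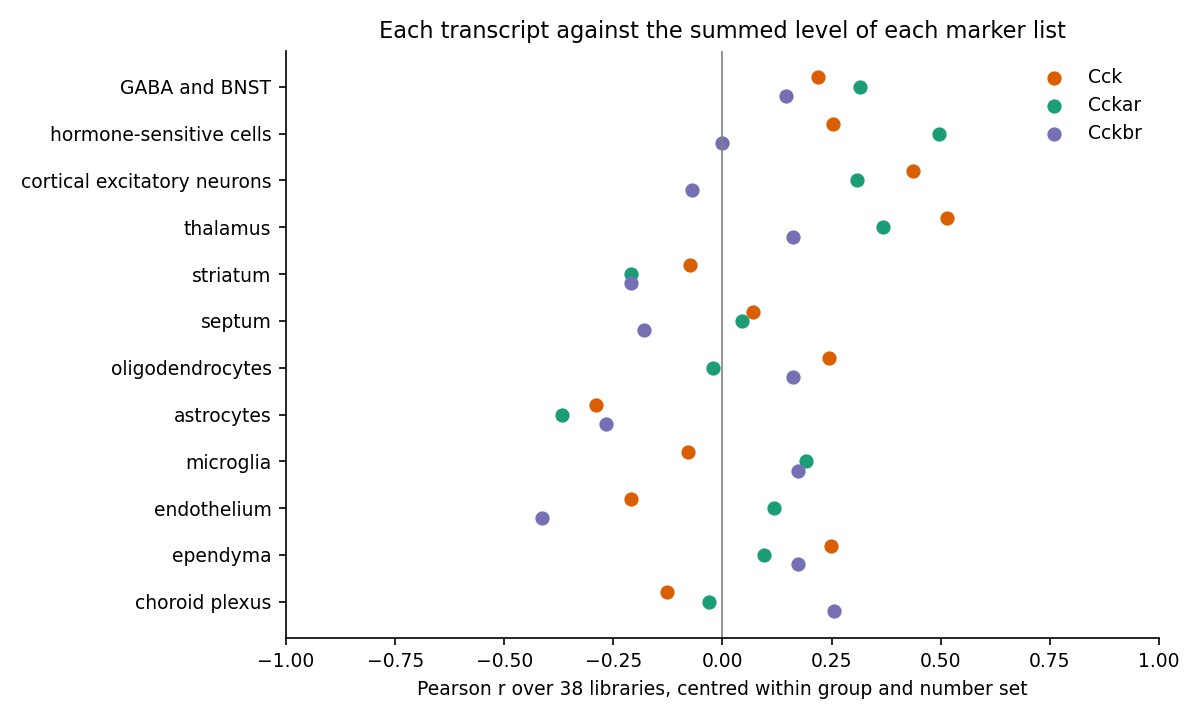
Pearson r over 38 libraries, centred within group and number set, of Cck, Cckar and Cckbr with the summed CPM of each of 12 marker lists. The highest points are Cck with thalamus at 0.514 and Cckar with hormone-sensitive cells at 0.497.

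The other genes of the pathway gave no call in any stress or sex contrast. Of 11 genes that mature or break down cholecystokinin, 0 passed under stress in females (median log2 difference -0.026) or in males (0.0022), beside medians of 0.0098 and -0.022 over all genes tested. The largest stress difference by p was that of the prohormone convertase Pcsk1, -0.47 ± 0.23 in females (edgeR adjusted p = 1) and 0.45 ± 0.23 in males (adjusted p = 0.863). Next came Scg5, the chaperone of the convertase Pcsk2, at 0.15 ± 0.076 in females (edgeR adjusted p = 1). None of 17 genes of Gq signalling and the M-current passed either. The closest were the IP3 receptor Itpr2, 0.20 ± 0.090 in males, and the phospholipase Plcb4, 0.47 ± 0.21 in males (both at an edgeR adjusted p of 0.863).

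Of 5 genes that cholecystokinin interneurons often carry (Cnr1, Slc17a8, Vip, Htr3a and Sncg), 0 passed in the stress or sex contrasts. Vip was at -0.24 ± 0.21 under stress in females and Slc17a8 at 0.24 ± 0.26 in males (edgeR adjusted p = 1 and 0.877). Htr3a, the ionotropic serotonin receptor, was picked out after its values were seen: male minus female was 1.06 ± 0.25 in controls (edgeR adjusted p = 0.145) and 0.86 ± 0.27 in stressed mice (adjusted p = 0.378). By direction alone, Htr3a was the only 1 of the 5 higher in males in controls, and 2 of the 5 were higher in stressed mice. In controls Slc17a8 was at -0.27 ± 0.25 and Vip at -0.22 ± 0.20. Gast, the other ligand of the type B receptor, was scarce, with means of 0.485 CPM in female controls and 0.572 in male controls, and differed by 0.12 ± 0.32 under stress in females. Per kilobase its median of 0.992 CPM stood far under that of Cck.

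The same lists split by library number. In libraries from 6, 2 maturation genes were higher, the amidating enzyme Pam (0.23 ± 0.073, edgeR adjusted p = 0.00889) and the protease Ctsl (0.22 ± 0.059), and 2 were lower, Pcsk2 (-0.28 ± 0.075) and the sulfotransferase Tpst1 (-0.15 ± 0.059). Of the 17 Gq and M-current genes, 10 were lower and 2 higher, with a median of -0.25. Among those lower were protein kinase C beta Prkcb (-0.75 ± 0.10), the regulator Rgs4 (-0.74 ± 0.11) and the M-channel subunits Kcnq3 (-0.59 ± 0.10) and Kcnq5 (-0.51 ± 0.091). Both receptor genes thus ran higher in the libraries in which most of these downstream genes ran lower. Of the companions, Sncg was higher (0.62 ± 0.18) and Slc17a8 (-0.56 ± 0.16) and Cnr1 (-0.29 ± 0.099) were lower. These shares are read against the 45.5% of all genes that passed. The part of the striatal, oligodendrocyte, ependymal, septal, BNST and hormone-sensitive markers in these shares was not tested.

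**Figure D5:**
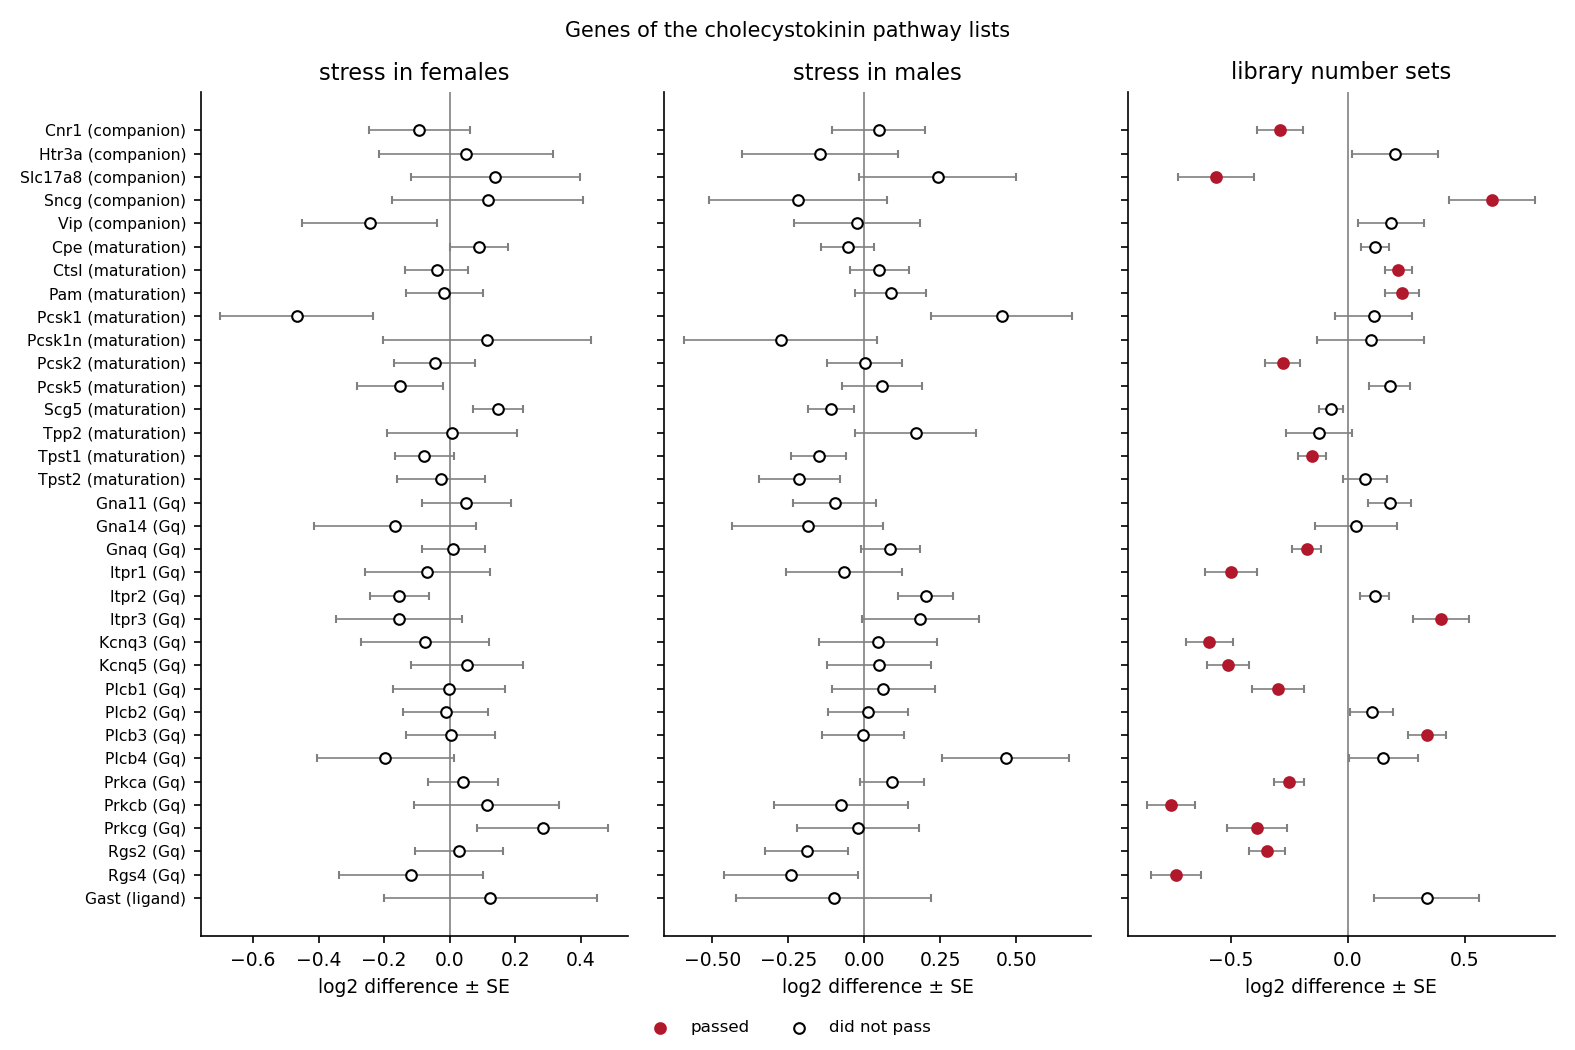
Log2 difference with its standard error for the 34 genes of the pathway lists under stress in females, under stress in males and between library number sets; filled points passed at an adjusted p under 0.05. No point is filled under stress, while 10 of 17 Gq and M-current genes were lower in libraries from 6.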

How the data were processed

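Values were raw read counts as deposited, 1 column for each library. The tools named per the submitters' processing notes are STAR, featureCounts and DESeq2, on mm10. For these tools the version, annotation and strand setting were not given in the sources used here. Tests were run with edgeR 4.0.16 (R 4.3.3): filterByExpr, TMM, a mean for each group, quasi-likelihood tests, Benjamini-Hochberg over 16309 genes, threshold 0.05. CPM were computed here on the effective library sizes, and relations used log2 CPM with a prior count of 2 and 100000 permutations within group and number set. Alternatives were DESeq2 1.42.0 and its size factors, limma 3.58.1 voom with sample quality weights, no filter, number terms and left-out libraries. The edgeR and relation steps were tested on simulated data. The genes and lists were chosen with earlier results of these data known. Named genes were the 3 members, up to 4 passing genes of each list and contrast, otherwise the 2 with the smallest p under stress, and the 4 genes with the highest and the 4 with the lowest r to each member; marker genes were shortened to those that touch a result. Chi-square per gene between the closest libraries of each group was at least 7.83, so none was treated as a copy.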

Additional observations from a re-analysis of the deposited data

Results flagged for a closer look

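Cckar in male control 9 was 15.5 CPM, far above the other 9 male controls. The gap to the next library was 0.577 of the range of the group, above the critical value of 0.466 for 10 libraries. It was the only one of 12 combinations of gene and group that stood out in this way, and chance flags about 1 in 20 when values are normally distributed. The check used CPM and not log2 CPM, on which high values lie less far out. The same library was also the highest male control for Cck and Cckbr.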

How the results depend on the processing

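Genes called for sex in controls were 21 with DESeq2, 30 with limma voom with quality weights and 7 in libraries up to 5, beside 11; in stressed mice they were 24 with DESeq2, 8 in libraries up to 5 and 6 in those from 6, beside 14. Leaving out 1 library at a time gave 9 (without stressed female 3) to 15 genes in stressed mice. Between number sets, limma voom with quality weights gave 0.40 for Cck and 0.27 for Cckar, and leaving out the 5 myelin-rich libraries gave 0.52 for Cck. Cck and Cckbr had r = 0.381 with DESeq2 size factors and 0.268 without the 5 libraries, leaving 1 passing pair each time. Centred by group alone, Cckar and Cckbr had r = 0.489, 6 marker relations passed and Cckbr with oligodendrocytes turned to -0.499 from 0.162; without the 5 libraries 3 passed. The causes were not tested. The library numbers were not taken to pair the samples: of 55 same-numbered pairs 40 had correlations over 0.1, the lowest was -0.357, and 13 were best with their own number; between stressed females and stressed males the range was 0.098 to 0.456. With the number as a replicate block, Cckar differed between the sexes by 1.70 in controls and 1.90 in stressed mice, and 13 and 14 genes were called. At 18 counts in its lowest library, Cckar is the gene that depth limits most.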
